A study of Mus musculus with 4 samples.

Results

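The 4 Ikaros family genes Ikzf1, Ikzf2, Ikzf3 and Ikzf4 and the gene Foxp3 were followed across Tc states and non-T cells in scRNA-Seq of mouse spleen. The 5 genes were picked by symbol, with their levels in these cells already known, from the 32285 genes of the count matrices. BALB/c recipient mice received lethal total body irradiation, 10000 WEHI-3B AML cells (a mouse myelomonocytic leukemia line) and allogeneic bone marrow, followed on day 2 by 200000 donor splenic T cells (Tc). Donors of both the marrow and the Tc were either Havcr2fl/fl, in which the gene for TIM-3 is floxed and intact, or Havcr2fl/fl;E8icre/+, in which the E8i enhancer of Cd8a drives Cre so that Havcr2 is to be deleted in CD8 Tc and not in CD4 Tc. All 4 recipients, 2 per donor genotype, thus shared irradiation and leukemia, and both transplanted marrow and Tc differed in donor genotype; the mice of the study were 7 to 12 weeks old. Spleens were taken on day 23, passed through a pan-T isolation kit and stained with an oligo-tagged antibody to H-2Kb, the donor haplotype, and each recipient gave 1 library.

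Ikaros (Ikzf1), Helios (Ikzf2), Aiolos (Ikzf3) and Eos (Ikzf4) are zinc finger transcription factors that bind DNA through an N-terminal set of fingers, pair with each other through C-terminal fingers, and recruit chromatin complexes such as NuRD. Foxp3 is the forkhead factor that defines regulatory T cells (Treg), where Helios marks many cells of thymic origin and Eos acts as a partner of Foxp3 in gene repression. Ikaros is widespread in blood cells, Aiolos is best known in mature lymphocytes, and Helios is also found in activated and exhausted CD8 Tc.

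The second DNA-binding finger is shown because the residues it encodes are the same in all 4 genes, while the counts come from tags at the far 3′ end of each transcript and so do not read it. Sequences are from the GENCODE vM21 transcripts on GRCm38, 5′ to 3′ on the coding strand, with the codons of the 2 cysteines and 2 histidines that hold the zinc in capitals.
Ikzf1: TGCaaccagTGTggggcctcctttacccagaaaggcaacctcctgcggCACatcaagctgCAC
Ikzf2: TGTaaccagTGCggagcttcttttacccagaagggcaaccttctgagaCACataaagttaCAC
Ikzf3: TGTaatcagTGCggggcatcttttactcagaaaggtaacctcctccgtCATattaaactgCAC
Ikzf4: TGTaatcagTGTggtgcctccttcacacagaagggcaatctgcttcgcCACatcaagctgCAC
The 63 bases lie in coding exon sequence: exon 6 of Ikzf1 (chr11:11754024-11754086, plus strand), exon 5 of Ikzf2 (chr1:69570581-69570643, minus strand), exon 5 of Ikzf3 (chr11:98488940-98489002, minus strand) and exon 5 of Ikzf4 (chr10:128640229-128640291, minus strand). All 4 genes shared 43 of the 63 bases (68.3%), pairs of genes shared 48 to 53, and the encoded 21 residues were identical in all 4. The fifth finger in order shared more bases (45 of 63, 71.4%) but fewer residues (16 of 21). A search for the C2H2 pattern found 6 fingers each in the encoded proteins of Ikzf1, Ikzf2 and Ikzf3 and 5 in that of Ikzf4. Foxp3 (chrX:7573644-7595245, plus strand) is not a member of this family. The 3′ tags cannot separate the isoforms of any of the 5 genes.

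The libraries held 17693991 to 55045903 gene UMIs, and 11194 cells were used after filters (median 5114.5 to 7396 UMIs per cell). Pairs of libraries shared 1 to 10 barcodes. Although the samples are labelled as T cells, 4552 cells (40.7%) fell in clusters without T cell markers, mostly erythroid-like, with 29.3% to 57.5% per library. Among the 6642 T cells, 4189 had UMIs of a CD8 chain gene but none of Cd4 (CD8 Tc), 1729 had the reverse (CD4 Tc), 195 had both and 529 had neither. Cells were sorted into 25 classes from clusters made without the 5 genes, and a class called "-like" had markers of that name raised. Some clusters with raised markers got no such name and are called by their leading genes, among them those led by F13a1, by Alas2 and by Adgrg1. For the TTEX-like, Treg-like, CD8 naive or memory-like and erythroid-like classes, 0 of the markers that named them were among the 10 leading genes of their clusters. The same held for a cluster of 348 cells within the CD8 cycling-like class. Havcr2, the targeted gene, stood at 61.9 and 7.66 UPM (UMIs of the gene per 1000000 UMIs summed over the cells of a library) in CD8 Tc of the libraries labelled Havcr2fl/fl;E8icre/+ replicates 1 and 2, and at 54.7 and 116 UPM in those labelled Havcr2fl/fl replicates 1 and 2. The library labelled Havcr2fl/fl;E8icre/+ replicate 1 was therefore within the range of the floxed libraries, while that of replicate 2 was below both. Why replicate 1 was not lower was not tested, and the gene's own counts do not settle its label. Lists of 4 values keep this order of libraries.

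Ikzf1 was the most widely detected member, with 24906 UMIs in 71.1% of the cells, and T cells held 47.2% of its UMIs. The other members were mostly T cell transcripts: T cells held 83.3% of the 8966 Ikzf2 UMIs, 97.7% of the 10294 Ikzf3 UMIs, 96.5% of the 767 Ikzf4 UMIs and 97.9% of the 625 Foxp3 UMIs. Ikzf2, Ikzf3, Ikzf4 and Foxp3 were seen in 22.0%, 37.9%, 5.32% and 2.14% of the cells. Levels across classes are given as a description without a test, because the genes were chosen with them known.

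**Figure D1:**
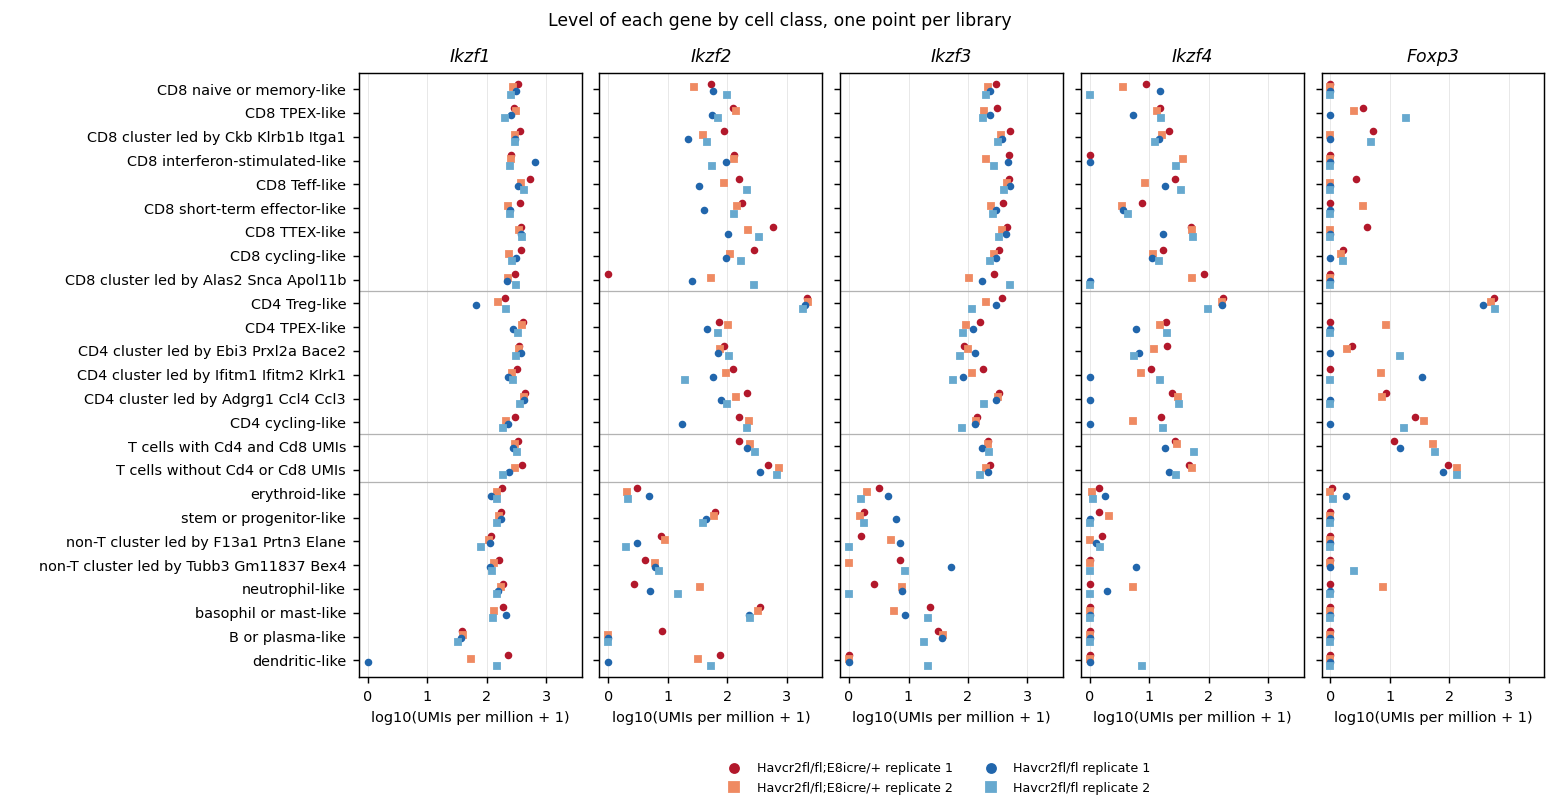
Level of each of the 5 genes in 25 cell classes, as log10(UPM + 1), with 1 point for each of the 4 libraries. Foxp3, Ikzf2 and Ikzf4 are highest in CD4 Treg-like cells, where Ikzf2 lies between 1883 and 2240 UPM, while Ikzf3 stays near 0 in erythroid and progenitor classes and Ikzf1 is present in nearly every class.

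Foxp3 was concentrated in a small set of cells. Treg-like CD4 cells were a cluster whose 10 leading genes included Itgae and Klrg1. In it 6 of 9 Treg markers were raised (Il2ra, Ctla4, Tnfrsf18, Tnfrsf4, Izumo1r and Itgb8), while Gpr83, Lrrc32 and Nrp1 were not. The limits for a raised marker were a log2 rise of 0.5 and 10% of cells. Lrrc32, though not raised by these limits, had its highest class mean in Treg-like cells, at 34.4 UPM. The CD4 cluster led by Ebi3, Prxl2a and Bace2 had 4 of 9 raised, Nrp1 among them. Treg-like cells held 561, 501, 367 and 590 UPM of Foxp3 in 35, 56, 4 and 18 cells per library, a mean of 505 ± 99.2 (SD, n = 4 libraries). All 4 libraries lay above every library of any other class. CD4 cycling-like cells followed among CD4 classes at 19.6 ± 15.6 UPM, and the other CD4 classes had means of 1.91 to 9.95 UPM with at least 1 library at 0.

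Of the 240 cells with a Foxp3 UMI, 84 were Treg-like, 88 lacked any Cd4 or Cd8 UMI, 14 had both, 12 were CD4 cycling-like and the rest were scattered. The cells with neither coreceptor had 110 ± 28.4 UPM of Foxp3. Those 88 Foxp3-containing cells resembled the Treg-like class in the other members, which the split did not use: Ikzf2 was at 2476 ± 255 UPM, against 257 UPM in the 441 cells without a Foxp3 UMI, and Ikzf4 at 156 against 17.0 UPM. No Foxp3 UMI was seen in 361 CD8 naive or memory-like cells. In CD8 Tc as a whole the level was 1.19 ± 1.09 UPM and in non-T cells 0.181 ± 0.141 UPM. With every cell thinned to 2000 UMIs, 11 of 3989 CD8 Tc (0.276%) and 0 of 4418 non-T cells had a Foxp3 UMI, and a count of 0 allows a share of up to 0.0679%. At full depth these shares were 0.430% and 0.176%, with medians of 3011 to 6952 UMIs per CD8 Tc and 12688.5 to 18819 per non-T cell.

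Ikzf2 had its highest level in the same class as Foxp3, and a further peak in exhausted CD8 Tc and a non-T class. Treg-like cells held 2238, 2240, 2033 and 1883 UPM (2099 ± 173), again apart from all other classes. The next highest mean was that of T cells without Cd4 or Cd8 UMIs, at 567 ± 183 UPM, a class that held many Foxp3-containing cells. TTEX-like CD8 Tc (terminally exhausted) held 584, 225, 102 and 336 UPM. In this cluster 7 of 9 TTEX markers were raised (Pdcd1, Lag3, Eomes, Nr4a2, Entpd1, Rgs16 and Cd160), while Tox and Tigit were not. Its 10 leading genes, which open with Ltf, Mrc2 and Glp1r, held none of these markers. The 4 libraries thus differed widely in this class, with the library labelled Havcr2fl/fl;E8icre/+ replicate 1 highest and Havcr2fl/fl replicate 1 lowest.

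Within each library, however, TTEX-like cells lay above the CD8 classes they were compared with. The Ikzf2 level of TTEX-like cells was 1.60 to 4.95 times that of TPEX-like cells (precursor exhausted, with raised Tcf7, Slamf6 and Id3) and 4.80 to 7.40 times that of the CD8 cluster led by Ckb, Klrb1b and Itga1, higher in 4 of 4 libraries for both. Cycling CD8 Tc stood at 162 ± 82.8 UPM, and naive or memory-like cells at 57.9 ± 28.9 UPM. When CD8 classes were ordered by their mean, the ranges of neighbours overlapped. Outside T cells, basophil or mast-like cells held 290 ± 61.1 UPM (range 234 to 352), within the range of TTEX-like cells, and stem or progenitor-like cells 50.4 ± 11.5 UPM. Erythroid-like cells were at 2.03 ± 1.32 UPM.

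Ikzf4, the sparsest Ikaros gene here, shared with Ikzf2 its highest class and, among CD8 states, its peak in TTEX-like cells, but not every other class. Its level was 171, 164, 167 and 95.1 UPM in Treg-like cells (149 ± 36.2). TTEX-like CD8 Tc were next among classes at 49.2, 50.9, 16.3 and 53.7 UPM (42.5 ± 17.6), and all 4 libraries had 3.45 to 4.15 times the level of TPEX-like cells. Short-term effector-like CD8 Tc, with raised Klrg1 and Cx3cr1, had 3.75 ± 1.84 UPM. This class joined a cluster of 86 cells with 7 of 7 markers raised and a larger one of 173 cells with 5 of 7. In the larger cluster Zeb2 and S1pr5 were not raised, 2 cycling markers were, and Ccnb2, Cdkn3 and Cenpa were among the leading genes. The Ikzf2 mean of short-term effector-like cells, however, was 122 ± 58.4 UPM, above the 97.2 ± 42.1 UPM of TPEX-like cells. No Ikzf4 UMI was found in the 183 basophil or mast-like cells, where 0 of 181 thinned cells allows a share of up to 1.66%. Non-T cells as a whole held 27 Ikzf4 UMIs, or 0.379 ± 0.216 UPM.

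Ikzf3 was higher in CD8 than in CD4 Tc as lineages, but not in every class. CD8 Tc held 323 ± 52.9 UPM (range 273 to 393) and CD4 Tc 141 ± 38.1 UPM (range 88.8 to 180), and the 4 libraries of the lineages did not overlap. The gap also held between cells of one name, since TPEX-like CD8 Tc had 1.95 to 2.16 times the Ikzf3 level of TPEX-like CD4 Tc in the 4 libraries. Among CD8 states, Teff-like cells (effector) were highest at 464 ± 46.4 UPM, and the classes below them were TTEX-like at 397 ± 57.1 and the Ckb cluster at 390 ± 80.4 UPM. In Teff-like cells 5 of 7 Teff markers were raised (Gzmb, Gzmk, Prf1, Ccl5 and Nkg7), while Gzma and Ifng were not, and 3 of 9 TTEX markers were raised as well. The libraries of Teff-like (403.5 to 507 UPM) and TTEX-like cells (326 to 453 UPM) overlapped, as did those of the classes below. Teff-like cells had 1.60 to 2.41 times the level of TPEX-like cells in the same library. The CD4 cluster led by Adgrg1, Ccl4 and Ccl3 had 9 of 9 TTEX markers and 6 of 6 cytotoxic CD4 markers raised, and kept the name of its leading genes. Among CD4 classes, this cluster held 284 ± 65.6 UPM and Treg-like cells 247 ± 114 UPM, while the other classes lay between 97.3 and 121 UPM on average. Both of these higher CD4 means lay above those of CD8 naive or memory-like (236 ± 42.2 UPM) and CD8 TPEX-like cells (228 ± 59.3 UPM).

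Ikzf1 varied least. T cell classes ranged from 158 UPM in Treg-like cells to 418 ± 82.1 UPM in Teff-like CD8 Tc, and CD8 Tc and CD4 Tc as lineages were level at 317 ± 38.9 and 317 ± 28.7 UPM. Treg-like cells, at 203, 153, 66.7 and 209 UPM, had the lowest mean of the 17 T cell classes, and TTEX-like cells had 1.83 to 5.74 times that level in each library. Non-T cells held 144 ± 18.1 UPM, from 36.2 ± 3.24 in B or plasma-like cells to 166 ± 18.7 in neutrophil-like cells. The order of the Ikzf1 and Ikzf3 classes was not fixed: by share of thinned cells with a UMI, the highest Ikzf1 class was the CD4 cluster led by Adgrg1 and the highest Ikzf3 class was the CD8 interferon-stimulated-like class of 35 cells.

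**Figure D2:**
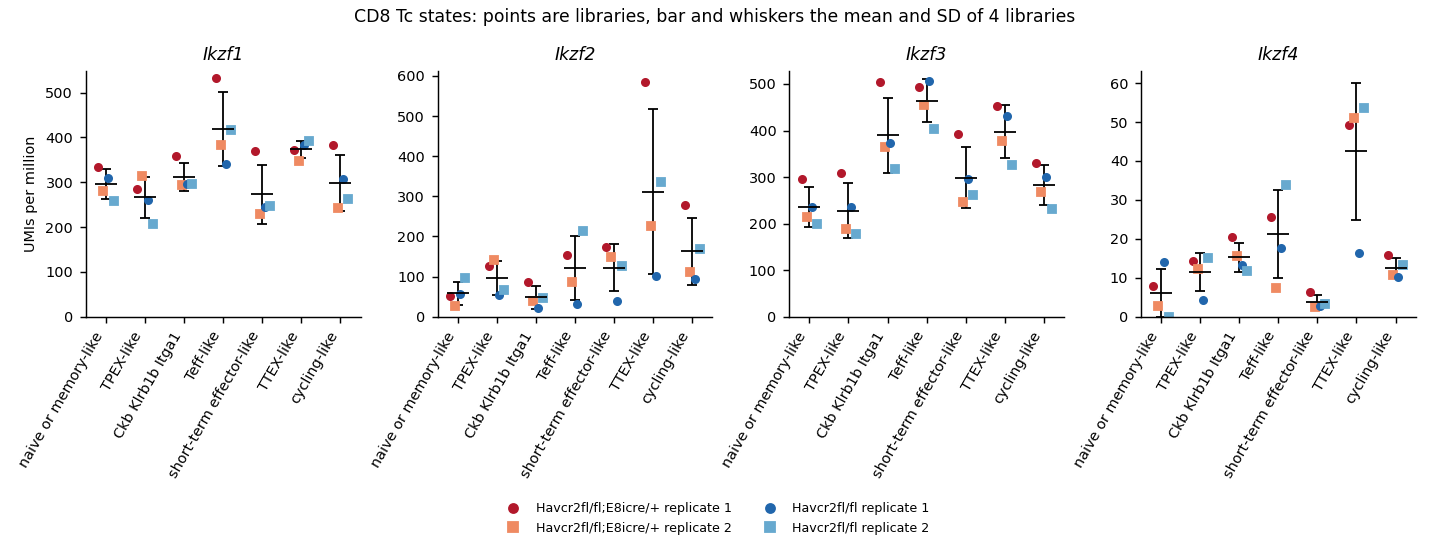
Ikzf1, Ikzf2, Ikzf3 and Ikzf4 in 7 CD8 Tc states, in UPM on a linear axis from 0. Points are the 4 libraries and the bar with whiskers is their mean ± SD; Ikzf2 and Ikzf4 peak in TTEX-like cells (312 and 42.5 UPM), and Ikzf1 and Ikzf3 in Teff-like cells (418 and 464 UPM).

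To see whether the members were found in the same cells, CD4 Tc were split by Foxp3 detection after thinning to 2000 UMIs, a depth that 1641 of 1729 CD4 Tc reached. Of the 72 Foxp3-positive cells, 70 also had an Ikzf2 UMI (97.2%, 95% Wilson interval 90.4% to 99.2%, counting error only), against 14.1% of the 1569 Foxp3-negative cells. Ikzf4 was found in 25.0% of positive cells (16.4% to 36.1%) against 2.74%. Ikzf1 went the other way, with 18.1% (10.9% to 28.5%) against 50.2%, and Ikzf3 was found in 34.7% (24.8% to 46.2%) against 23.5%.

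At full depth the shares were 98.6%, 45.8%, 36.1% and 55.6% for Ikzf2, Ikzf4, Ikzf1 and Ikzf3 in positive cells and 22.4%, 6.18%, 75.5% and 40.5% in negative cells, with median depths of 3824 and 4701 UMIs. Among thinned non-T cells, Ikzf2 was found in 3.33% and Ikzf4 in 0.0226%. T cells without coreceptor UMIs gave like shares: of 52 Foxp3-positive cells, 92.3% had Ikzf2, 23.1% Ikzf4 and 25.0% Ikzf1, against 20.4%, 2.06% and 45.4% of 339 negative cells. Every one of the 72 Foxp3-positive CD4 Tc had a UMI of at least 1 Ikaros gene, whereas 512 of the 1569 negative cells had none after thinning.

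The counts of the same cells were then summed per library and compared across all genes with edgeR, with the library as a block. Of 7442 genes tested, 348 (4.68%) passed an adjusted p of 0.05, 126 (1.69%) higher and 222 (2.98%) lower in Foxp3-positive CD4 Tc. The positive side rested on 19, 43, 2 and 8 cells, of which 62 of 72 were Treg-like. The members' levels in that class were already known, so their differences between the sides are given as a description, with no test. Between them the erythroid markers summed to 60.3 to 31597 UPM in the positive sums and 97.8 to 1972 UPM in the negative sums, none of the 5 tested was called, and their part in the results was not tested.

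Ikzf2, Helios, stood at 2080, 2490, 1368 and 1631 UPM in Foxp3-positive sums and at 152, 149, 85.5 and 154 UPM in Foxp3-negative sums. The positive sums lay above the negative sums in 4 of 4 libraries, with a log2 difference of 3.43 (SE 0.32). Ikzf4, Eos, stood at 191, 145, 205 and 0 UPM against 17.6, 16.2, 4.10 and 18.6 UPM, higher in 3 of 4 libraries and without a UMI in the 8 positive cells of the library labelled Havcr2fl/fl replicate 2. Its log2 difference was 3.0 (SE 0.37).

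Ikzf1, Ikaros, was lower in Foxp3-positive CD4 Tc, at 141, 111, 0 and 176 UPM against 356, 329, 324 and 272 UPM. It was lower in 4 of 4 libraries, with a log2 difference of -1.72 (SE 0.34). Ikzf3, Aiolos, was at 311, 247, 274 and 132 UPM against 175, 135, 151 and 86.5 UPM, higher in 4 of 4 libraries, with a log2 difference of 0.56 (SE 0.30). Over the alternatives, the log2 difference ranged from 3.29 to 3.97 for Ikzf2, 2.87 to 3.27 for Ikzf4, -1.82 to -1.32 for Ikzf1 and 0.46 to 0.74 for Ikzf3.

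**Figure D3:**
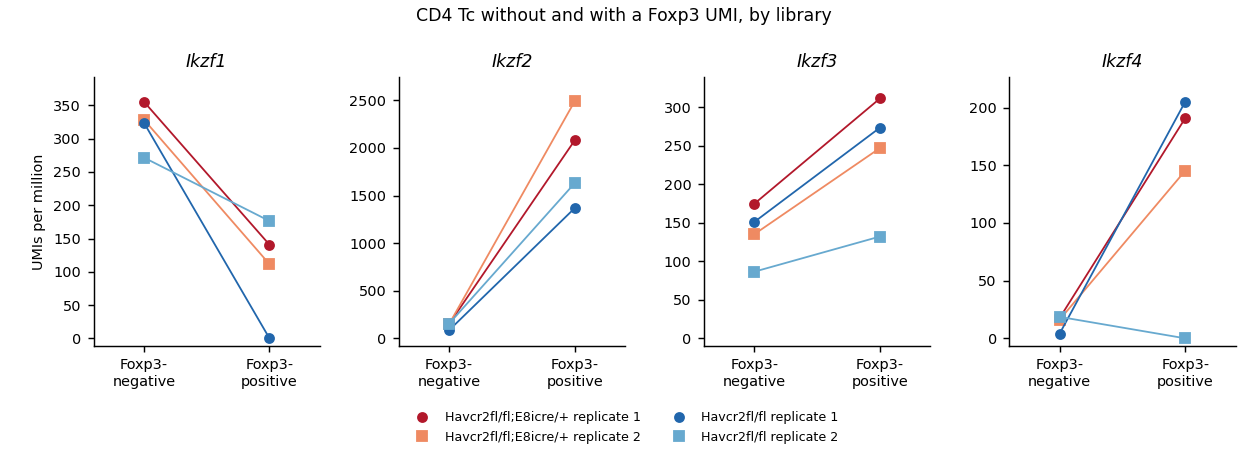
Ikzf1, Ikzf2, Ikzf3 and Ikzf4 in UPM in CD4 Tc without and with a Foxp3 UMI; each line joins the sums of 1 library and each panel has its own axis from 0. The Ikzf2 lines go up in all 4 libraries (to 1368 to 2490 UPM), those of Ikzf4 in 3 of 4 and those of Ikzf3 in all 4, while the Ikzf1 lines go down in all 4.

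Most of the Treg-associated genes that could be tested moved with the members in Foxp3-positive cells. Of 25 Treg-associated genes, 23 could be tested, and 15 were higher and 1 lower (median log2 difference 1.16, against -0.18 over all genes tested), counting Ikzf2 and Ikzf4, which are in the list. Several genes of this list, Il2ra, Itgb8 and Ctla4 among them, also named the Treg-like class that made up most of the positive cells, so the count is no independent evidence. Itgae, the integrin alpha chain CD103, rose by 4.70 on the log2 scale (SE 0.36; 132 to 684 UPM against 7.28 to 10.3 UPM), Il2ra, the IL-2 receptor alpha chain, by 3.06 (SE 0.28), Itgb8, which activates TGF-β, by 2.69 (SE 0.35) and Ctla4, an inhibitory receptor, by 1.67 (SE 0.29). Nrp1, neuropilin-1, often used to mark Treg cells of thymic origin, was the member of the list that was lower, at 40.2, 48.5, 137 and 88.1 UPM against 217, 235, 165 and 149 UPM (log2 difference -2.22, SE 0.40). It is also 1 of the 9 Treg markers used for naming. The CD4 cluster led by Ebi3, in which Nrp1 was raised, made up 36.1% of the Foxp3-negative cells, so this difference is no independent evidence either.

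Of 10 genes known to be low in Treg cells, 7 were tested and 5 were lower. Tcf7, the precursor factor TCF-1, fell by 4.06 on the log2 scale (SE 0.54), and Bcl2, a survival factor, by 3.29 (SE 0.41). Pde3b and Cd40lg had no UMI in positive cells, which puts them at least 3.74-fold and 5.34-fold lower when 3 UMIs are allowed over all positive cells, and their list's median of -3.29 became -2.15 with both at this bound.

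Effector genes split in Foxp3-positive cells, with 3 higher and 8 lower of 15 tested (16 in the list). Gzmb, granzyme B, was at 914, 911, 1641 and 925 UPM against 109, 60.5, 93.0 and 129 UPM (log2 difference 3.12, SE 0.29), and Klrg1 rose by 3.50 (SE 0.34) in 3 of 4 libraries. Gzma, granzyme A, had no UMI in positive cells and was at least 16.1-fold lower, and the chemokine genes Ccl3, Ccl4 and Ccl5 were lower as well. Of 14 exhaustion genes, 11 were tested and Pdcd1, Tox and Cd160 were lower and Ctla4 higher. Of 9 tested precursor and memory genes, 5 were lower (Tcf7, Slamf6, Id3, Xcl1 and Bcl2), the Ly49 and related receptor list gave Il2rb higher and Klrd1 lower of 4 tested, and cell cycle genes gave 0 higher and 3 lower of 16 (Top2a, Cdk1 and Ccnb1). Among 23 tested partner genes of the Ikaros family, such as NuRD subunits, Foxo1 alone was called, at 107 to 264 UPM against 49.6 to 60.9 UPM (log2 difference 1.31, SE 0.35).

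Other genes with large rises in all 4 libraries were Gm28112, Rapsn, Gm4951 and Csrp2 (log2 differences 4.05, 3.74, 3.64 and 3.60). The largest falls were of Nrgn, Gzma, Sostdc1, Klrd1 and Il21, all at 0 UMIs in positive cells and therefore at least 17.99-, 16.1-, 10.6-, 7.61- and 7.40-fold lower. Scaling by DESeq2 size factors moved the median of all genes from -0.18 to -0.08 on the log2 scale and the number of calls from 348 to 411.

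In CD8 Tc, where Foxp3 was nearly absent, Ikzf2 was used to split the cells instead. After thinning, 781 of 3989 CD8 Tc (19.6%) were Ikzf2-positive, and 200 of the 4189 CD8 Tc were too shallow to enter. TTEX-like cells made up 39.4% of the positive and 11.1% of the negative cells, cycling cells 25.2% and 16.8%, and the Ckb cluster 9.48% and 29.8%. The high levels of Ikzf2 and Ikzf4 in TTEX-like cells were already known, so the split is not independent of them. Across genes, 529 of 10314 (5.13%) were called, 273 (2.65%) higher and 256 (2.48%) lower in Ikzf2-positive cells.

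Ikzf4 was at 35.2, 28.5, 14.0 and 32.2 UPM in Ikzf2-positive sums and at 17.7, 13.6, 10.9 and 17.3 UPM in negative sums. It was higher in 4 of 4 libraries, with a log2 difference of 0.94 (SE 0.16), and of 0.72 to 1.01 over the alternatives. As the levels of both genes in TTEX-like cells were known, this is a description with no test. With all libraries pooled, Ikzf4 was also higher on the positive side inside 6 CD8 states, but mostly from few UMIs. It was at 55.4 against 38.4 UPM in TTEX-like cells (89 and 80 UMIs), 20.1 against 11.2 in cycling cells (38 and 66) and 31.0 against 15.2 in the Ckb cluster (10 and 67). TPEX-like cells had 16.2 against 10.4 UPM (7 and 26 UMIs), Teff-like cells 22.8 against 19.3 (5 and 25) and short-term effector-like cells 9.64 against 3.06 (2 and 4). Naive or memory-like cells had 0 UMIs in 29 positive cells against 10 UMIs (7.42 UPM) in 304 negative cells, too few to read a direction. These differences were not tested one by one. Read from the other side, 32.6% of 141 Ikzf4-positive CD8 Tc had an Ikzf2 UMI (25.4% to 40.7%), against 19.1% of 3848 Ikzf4-negative cells.

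Foxp3 had 11, 3, 0 and 5 UMIs in Ikzf2-positive CD8 Tc against 5, 1, 0 and 3 in negative cells. It passed the filter on low counts only through the positive sums, so these few UMIs are a description and no test is given. Ikzf1 and Ikzf3 did not pass the test, with log2 differences of 0.15 (SE 0.06, adjusted p = 0.23, edgeR) and 0.07 (SE 0.07, adjusted p = 0.75, edgeR). Ikzf1 was at 410, 297, 350 and 324 UPM in positive sums against 361, 288, 300 and 286 UPM.

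**Figure D4:**
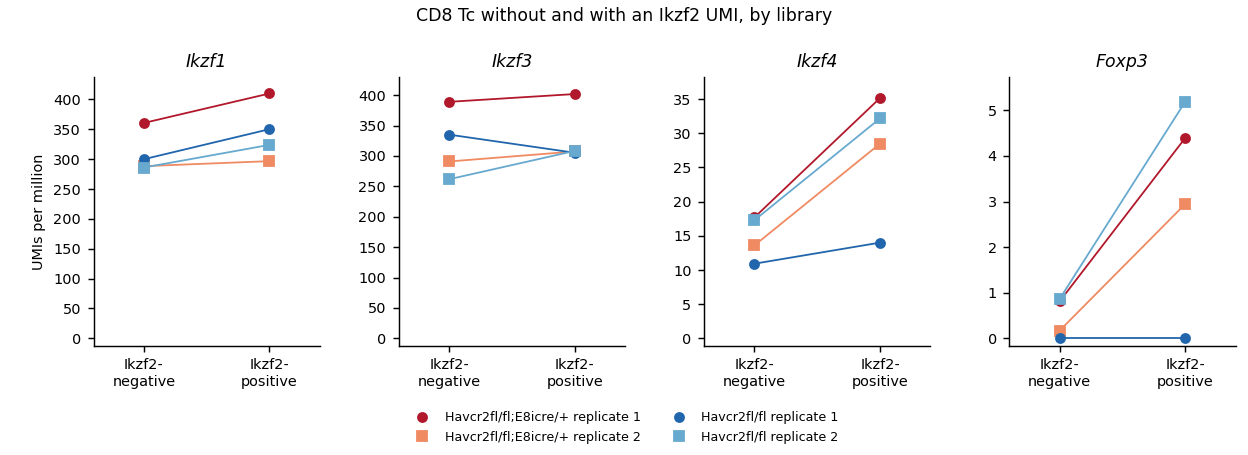
Ikzf1, Ikzf3, Ikzf4 and Foxp3 in UPM in CD8 Tc without and with an Ikzf2 UMI; each line joins the sums of 1 library and each panel has its own axis from 0. Ikzf4 rises in all 4 libraries (to 14.0 to 35.2 UPM), Foxp3 rests on 0 to 11 UMIs a sum and was not tested, and the Ikzf1 and Ikzf3 lines are nearly flat.

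Ikzf2-positive CD8 Tc had more of the exhaustion genes, with 11 of 14 higher and 0 lower (median log2 difference 0.47, against -0.0045 over all genes). Nr4a2, an activation-induced nuclear receptor, was at 418, 196, 289 and 376 UPM against 169, 94.0, 112 and 172 UPM (log2 difference 1.21, SE 0.07), and Tox and Pdcd1 rose by 0.37 each. Havcr2 rose by 0.95 (SE 0.12, adjusted p = 1.7e-05, edgeR), at 105, 5.89, 75.6 and 183 UPM against 44.3, 7.99, 52.1 and 99.6 UPM, and was thus lower on the positive side in the library labelled Havcr2fl/fl;E8icre/+ replicate 2. Of 16 effector genes 7 were higher, among them Gzma (1.27, SE 0.15), Ccl3 (1.01, SE 0.08) and Prf1 (0.51, SE 0.10), and Gzmm and Id2 were lower. Of 11 tested precursor and memory genes, 0 were higher and Il7r, Lef1, Satb1 and Bcl2 were lower. The TTEX-like class was itself named from several exhaustion genes, and it held a larger share of the positive than of the negative cells.

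The Treg-associated list, counting Ikzf4, gave 6 higher and 3 lower of 19 tested in CD8 Tc, with a median log2 difference of 0.06. The list was not tested against the split of CD4 Tc. Ikzf4, Tnfrsf9, Itgb8, Tigit, Il2rb and Entpd1 were higher, and Il2ra, Tnfrsf4 and Nrp1 lower. Genes known to be low in Treg cells gave 0 higher and 3 lower of 8, Ly49 and related receptors 1 higher and 3 lower of 9, and cell cycle genes 0 higher and 1 lower of 16 (Pclaf). None of the 25 partner genes was called; the differences farthest from 0 were those of Bach2 (-0.43, SE 0.27) and Runx1 (-0.32, SE 0.11). The largest rises in all 4 libraries were of Ltf (3.09), Eno3 (1.80), Mrc2 (1.75), Serpine2 (1.67) and Cd200r2 (1.67), and the largest falls of Ifitm1 (-3.35), Ccr2 (-2.50), Itga1 (-2.16), Ly6c2 (-2.10) and Klhl6 (-1.82). Ltf is also a neutrophil marker, and the 5 neutrophil markers summed to 36.3 to 93.1 UPM in positive and 19.3 to 52.6 UPM in negative sums. Ltf was the 1 of the 5 that was called. Monocyte or macrophage markers went the other way, at 16.8 to 23.9 UPM in positive and 51.8 to 62.3 UPM in negative sums with 1 of 3 tested called lower, as was 1 dendritic marker (0 to 2.80 against 4.93 to 9.80 UPM for that list). Erythroid markers summed to 131 to 5695 UPM and 689 to 1531 UPM, and 0 of 7 tested were called. Whether RNA of other cells played a part was not tested.

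Ikzf3 detection split CD8 Tc nearly evenly, with 1923 of 3989 thinned cells positive (48.2%), and no other member was called between the sides. Ikzf1 was at 398, 306, 334 and 301 UPM in Ikzf3-positive sums against 349, 278, 283 and 289 UPM (log2 difference 0.13, SE 0.05, adjusted p = 0.11, edgeR). Ikzf2 differed by 0.12 (SE 0.06, adjusted p = 0.37, edgeR) and Ikzf4 by 0.27 (SE 0.15, adjusted p = 0.36, edgeR), and Foxp3 was too low to test. When the cells were split on their full counts the Ikzf2 difference was 0.29 and passed the threshold, but that split also parts cells by depth. Its positive cells had medians of 3336 to 7343.5 UMIs per library and its negative cells 2663 to 5572.5. The levels of Ikzf2 and Ikzf3 in TTEX-like cells were already known, so neither split is independent of them. In the split after thinning, 607 of 10098 genes (6.01%) were called, 202 (2%) higher and 405 (4.01%) lower, and 0 were called without the library block. Erythroid markers summed to 438 to 1084 UPM in positive and 588 to 2675 UPM in negative sums. Of 7 tested, 4 were called lower. Of 3 tested monocyte or macrophage markers, 1 was called lower (37.5 to 44.5 against 50.7 to 67.4 UPM for that list). A part of RNA from other cells in this split was not tested.

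Of the lists, 7 of 16 effector genes were higher in Ikzf3-positive CD8 Tc (Gzma by 0.61, SE 0.05), 6 of 14 exhaustion genes were higher (Nr4a2 by 0.46, SE 0.06), and 6 of 12 precursor and memory genes were lower (Il7r at -1.02, SE 0.09, and Ccr7 at -2.90, SE 0.54). Teff-like cells made up 12.9% of the positive and 6.82% of the negative cells, TTEX-like cells 19.1% and 14.3%, and TPEX-like cells 9.57% and 16.8%. These classes were named from several genes of the lists, and their Ikzf3 levels were already known, so the counts are no independent evidence. Treg-associated genes gave 2 higher and 5 lower of 20, genes low in Treg cells 1 and 4 of 8, Ly49 and related receptors 1 and 1 of 9, and partner genes 0 of 25. The 15 of 16 cell cycle genes that were lower after thinning turned higher when cells were split on their full counts (Mki67 from -0.22 to 1.52 on the log2 scale), so their direction depends on the depth at which the split is made. The largest rises were of Gzma, Gm42047 (0.56), Ypel2 (0.55), Ier5l (0.54) and Pdgfb (0.53), and the largest falls of Ifitm1 (-1.45), Il7r, Gpr183 (-0.72), Hist1h1a (-0.71) and Ccr2 (-0.71), with Hist1h1a also turning with the split.

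The design asks whether TIM-3 loss in donor CD8 Tc changed gene levels, and no member passed the test between donor genotypes. Lower Havcr2 RNA in CD8 Tc was seen only in the library labelled Havcr2fl/fl;E8icre/+ replicate 2, as replicate 1 was within the floxed range. Of 10823 genes tested in CD8 Tc, 3 (0.0277%) were called by edgeR, 2 higher (0.0185%) and 1 lower (0.00924%) with Havcr2fl/fl;E8icre/+ donors and none of them a member (283 had an unadjusted p under 0.05, and DESeq2 called 6). In CD4 Tc 0 of 9570 genes were called (298 at an unadjusted p under 0.05, 5 by DESeq2), and 4 of 10867 (0.0368%) differed in their genotype effect between CD8 and CD4 Tc, with 2 (0.0184%) in each direction. With 2 libraries per genotype, a level in a lineage can change through fewer cells of a state or less RNA per cell, which these sums cannot tell apart. The p-values measure only the spread between these 4 libraries.

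In CD8 Tc, Ikzf2 was at 263 and 106 UPM in the Havcr2fl/fl;E8icre/+ libraries and at 59.5 and 165 UPM in the Havcr2fl/fl libraries. The groups overlapped (log2 difference 0.66, SE 0.45), and without the library labelled Havcr2fl/fl;E8icre/+ replicate 1 the difference was -0.07. Ikzf4 was at 22.9, 15.8, 11.1 and 20.3 UPM (0.25, SE 0.30), Ikzf1 at 374, 289, 307 and 297 UPM (0.10, SE 0.20) and Ikzf3 at 393, 293, 334 and 273 UPM (0.14, SE 0.21), all with overlapping groups. Foxp3 had 16, 4, 0 and 11 UMIs.

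In CD4 Tc, in which Cre is not meant to act, the groups did not overlap for Ikzf2 and Ikzf4. Non-overlap was seen for 31.5% of all genes tested in CD4 Tc and for 27.1% in CD8 Tc. Ikzf2 was at 230 and 276 UPM against 97.5 and 197 UPM (log2 difference 0.74, SE 0.32), and Ikzf4 at 24.1 and 23.1 UPM against 6.05 and 19.5 UPM (0.93, SE 0.43), both with an adjusted p of 1.0 in edgeR. Foxp3 was at 33.2 and 46.3 UPM against 13.4 and 37.1 UPM (0.69, SE 0.40), with overlapping groups, as were those of Ikzf1 (0.10, SE 0.21) and Ikzf3 (0.35, SE 0.26).

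With all libraries, no member passed the test of whether its genotype effect differed between CD8 and CD4 Tc. For Ikzf2 that difference was -0.10 (SE 0.36), but it was -0.91 (adjusted p = 4.2e-05, edgeR) without the library labelled Havcr2fl/fl;E8icre/+ replicate 1 and 0.68 without Havcr2fl/fl;E8icre/+ replicate 2, so both its sign and its call rested on single libraries.

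**Figure D5:**
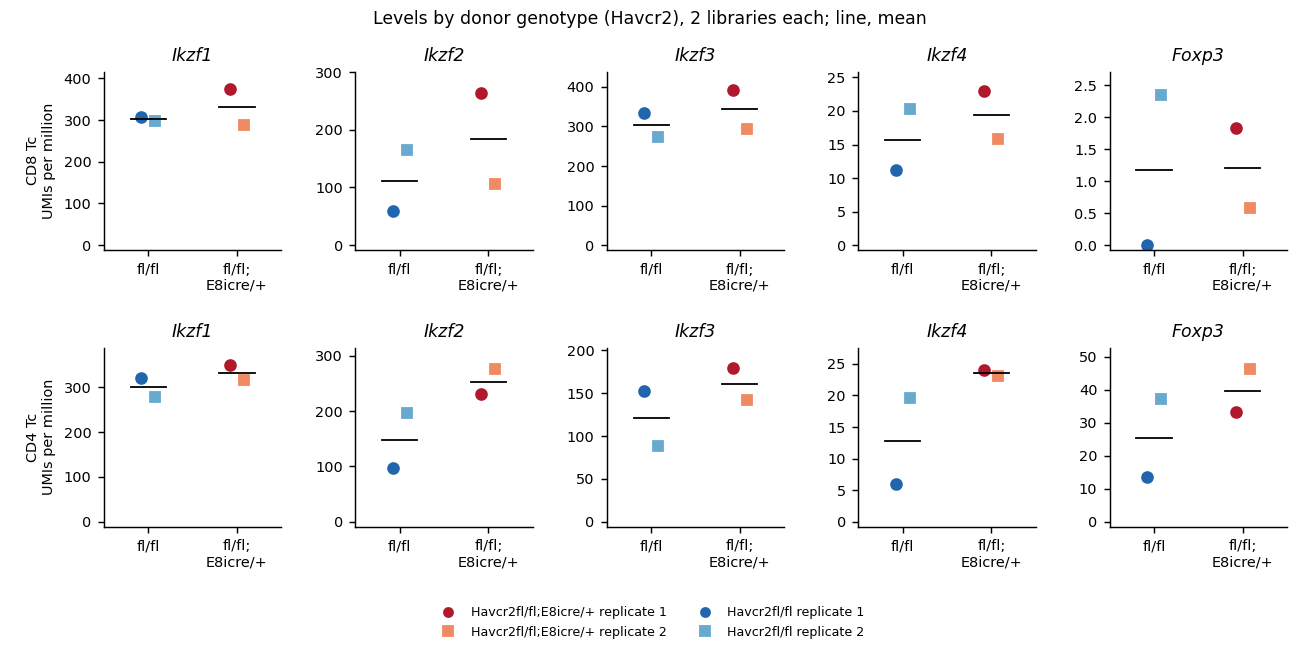
Levels of the 5 genes by donor genotype in CD8 Tc (upper row) and CD4 Tc (lower row), in UPM, with 1 point per library and a line at the mean of 2. The groups overlap for all 5 genes in CD8 Tc (Ikzf2 from 59.5 to 263 UPM), and in CD4 Tc they are apart for Ikzf2 and Ikzf4.

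The share of CD4 Tc with a Foxp3 UMI after thinning was 3.49% (19 of 544 cells), 7.05% (43 of 610), 0.855% (2 of 234) and 3.16% (8 of 253). The mean was 3.26 percentage points higher with Havcr2fl/fl;E8icre/+ than with Havcr2fl/fl donors, and in these cells the groups did not overlap. An exact permutation test, two-sided, gave p = 0.33, the smallest that 2 against 2 libraries allow. At full depth the shares were 5.86%, 9.06%, 2.49% and 5.54%, and leaving out 1 library moved the difference between 1.48 and 5.04 points. Many cells with a Foxp3 UMI lacked a Cd4 UMI, however (19, 27, 3 and 39 cells at full depth without either coreceptor). With T cells without Cd4 or Cd8 UMIs counted together with CD4 Tc, an alternative chosen after seeing the data, the shares were 4.50% (30 of 667), 9.14% (66 of 722), 1.87% (5 of 268) and 6.13% (23 of 375), and the groups overlapped. The difference was then 2.82 percentage points (exact permutation test, p = 0.67).

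Across the 25 class means, on the log2(UPM + 1) scale, Ikzf2 and Ikzf4 had a Pearson correlation of 0.76 and Ikzf2 and Foxp3 of 0.61; over the 17 T cell classes these were 0.78 and 0.76. Ikzf1 and Foxp3 stood at 0.17 over all classes and at -0.65 over T cell classes. These are descriptions: the classes share libraries and depth. Among 9669 genes, the genes most like Foxp3 were Lrrc32 (r = 0.91), a Treg surface protein that binds latent TGF-β, Rln3 (0.91) and Ncmap (0.90). Those most like Ikzf4 were Vps54 (0.92), Sdcbp2 (0.91) and Ctla4 (0.90), and those most like Ikzf2 were Rgs1 (0.88), AI504432 (0.86) and Gm28112 (0.85). Ikzf3 was closest to Gimap1os, Gimap5 and Gimap6 (0.96 each), and Ikzf1 was close to Mier1 (0.93) and Dusp11 (0.92). Within the 17 T cell classes alone the likeness stayed at 0.91 to 0.92 for the genes like Foxp3 and was 0.90 for Gm28112, and it fell for all others: to 0.44 and 0.55 for Rgs1 and AI504432, 0.72, 0.62 and 0.62 for Vps54, Sdcbp2 and Ctla4, 0.30 to 0.55 for the Gimap genes, and 0.51 and 0.57 for Mier1 and Dusp11.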

How the data were processed

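The authors aligned 10x Genomics 3′ v3.1 reads with Cell Ranger 6.1.2 to mm10 and deposited UMI counts per gene and cell, with 1 antibody tag, for 4 libraries. From these counts, 11632 of 15784 barcodes passed filters (500 genes or more, 1000 UMIs or more, mitochondrial share no higher than 10%), and 438 cells were removed as doublets by their Scrublet score at 0.8% per 1000 barcodes, since Scrublet's own threshold called 125. Cells were clustered with Seurat 5.3.0 (integrated by library, 2000 variable genes without the 5 members, 30 dimensions) and named from fixed markers. The 5 members, the gene lists and the markers were chosen with earlier results of these data known. UMIs were summed per library and tested with edgeR 4.0.16 (quasi-likelihood, TMM, filterByExpr, Benjamini-Hochberg over all genes tested, threshold 0.05); cells are not replicates. For splits by a member, each cell was thinned to 2000 UMIs, cells below that were left out, full counts were summed, the split gene was not tested, and the library was a block. Shares carry Wilson 95% intervals, and 3 UMIs stand for a count of 0; both cover counting error only. Named genes were the members, Havcr2, the 3 genes most like each member, the 5 largest rises and falls of each split among called genes of at least 20 UPM moving alike in 4 of 4 libraries, and called genes of the lists (where none was called, the 2 farthest from 0); some of these are not reported here. TTEX-like cells were not compared between genotypes, since another class's marker led them. Sequences come from GENCODE vM21 (GRCm38). The tests were also run on simulated counts with the same fixed dispersion for every gene. That run cannot show how often the tests err at the real spread between these libraries. Alternatives were DESeq2 1.42.0, its size factors in edgeR, other cell and count filters, blocks, splits on full counts, clusters without integration, and leaving out each library.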

Additional observations from a re-analysis of the deposited data

How the results depend on the processing

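Few libraries limit every count of calls. Of CD8 Tc genotype calls (3), DESeq2 gave 6, no low-count filter 96, the replicate block 0 and leaving out a library 0 to 13; of CD4 Tc (0), DESeq2 gave 5, no low-count filter 48, keeping doublets 1, the replicate block 5 and leaving out a library 3 to 27. Same-numbered libraries correlated at -0.14 in CD8 and 0.03 in CD4 Tc. With 2 libraries per genotype, these values cannot decide whether the numbers mark pairs. A crossed pairing, chosen after seeing the data, gave 62 and 31 calls. The difference of genotype effects (4) gave 1 without the mouse block and 0 to 50 without a library. The Foxp3 split (348) gave 193 with DESeq2, 662 on full counts and 103 to 338 without a library; the Ikzf2 split (529) gave 238, 1217, 30 without the library block and 213 to 515; the Ikzf3 split (607) gave 205, 1236, 0 and 261 to 578. Single libraries that moved these counts most were Havcr2fl/fl;E8icre/+ replicates 1 and 2 (Foxp3 split 160 and 103 without them, Ikzf3 split 331 and 261, CD4 Tc 27 and 25, difference of genotype effects 47 and 50, against 0 without either Havcr2fl/fl replicate), Havcr2fl/fl;E8icre/+ replicate 1 and Havcr2fl/fl replicate 2 (Ikzf2 split 213 and 307) and, for CD8 Tc genotype calls, replicate 1 of Havcr2fl/fl and of Havcr2fl/fl;E8icre/+ (13 and 9, against 0 and 1 without replicate 2 of each). Counting T cells without coreceptor UMIs with CD4 Tc made the groups overlap in the share with a Foxp3 UMI. By thinned share, 3 of 5 members kept their highest class.

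Genotype differences of members near 0 changed sign. In CD8 Tc Foxp3 (-0.04) became 0.065 (crossed block), 0.44 (doublets kept) and 0.080 (replicate block). Leaving out 1 library gave -1.05 to 6.03 for Foxp3, -0.051 to 0.23 for Ikzf1, -0.074 to 1.58 for Ikzf2, -0.037 to 0.30 for Ikzf3, -0.099 to 0.76 for Ikzf4 and, in CD4 Tc, -0.27 to 1.26 for Havcr2; the lowest came without the library labelled Havcr2fl/fl;E8icre/+ replicate 1, or for Ikzf4 and Havcr2 without Havcr2fl/fl replicate 1. The difference of genotype effects became 0.018 for Foxp3 and 0.010 for Ikzf1 with doublets kept and 0.0047 for Ikzf1 without the mouse block, and leaving out 1 library gave -1.82 to 4.09 for Foxp3, -0.13 to 0.10 for Ikzf1 and -0.91 to 0.68 for Ikzf2. With splits on full counts, Ccnb1 and Cdk1 became 0.55 and 0.19 in the Foxp3 split, Pclaf 0.57 in the Ikzf2 split, and in the Ikzf3 split Birc5 1.23, Ccna2 1.35, Ccnb1 1.29, Ccnb2 1.15, Cdk1 1.40, Hdac2 0.37, Hist1h1a 1.55, Mcm3 0.96, Mcm5 0.95, Mki67 1.52, Pclaf 1.64, Pcna 0.46, Rrm2 1.33, Stmn1 1.41, Top2a 1.35, Tubb5 0.76 and Tyms 0.69. The cause was not tested.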

Other observations

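The oligo-tagged H-2Kb antibody, which reads donor haplotype on the cell surface, gave a measure apart from RNA. CD4 Tc with a Foxp3 UMI had higher median tag counts than those without in 4 of 4 libraries: 2206 against 1611, 2700.5 against 1944.5, 4939 against 2388 and 1901 against 1117.5, from 33, 56, 6 and 17 positive cells. The ratios of medians were 1.37 to 2.07. T cells without Cd4 or Cd8 UMIs gave ratios of 1.32 to 2.07 for the same split. Per 1000 gene UMIs of a cell, the medians in CD4 Tc were 698 against 407, 513 against 364, 512 against 436 and 742 against 385. In the cells without coreceptor UMIs they were 768 against 483, 665 against 386, 417 against 436 and 740.4 against 466. On this scale the library labelled Havcr2fl/fl replicate 1, with 3 positive cells of 7727 against 4032 median gene UMIs, was lower on the positive side. The difference was not tested.

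Of 13 T cells without coreceptor UMIs that had a UMI of Trdc, the gamma-delta receptor constant gene, 8 of 13 had an Ikzf2 UMI after thinning and 0 had a Foxp3 UMI, which allows a share of up to 23.1%. All 91 Ikzf2 UMIs of these cells came from the 11 cells of the library labelled Havcr2fl/fl;E8icre/+ replicate 2 (1089 UPM). Among TTEX-like CD8 Tc, 10 of 664 thinned cells had UMIs of all 4 Ikaros genes at once and 78 had none, while of 3029 erythroid-like cells 2397 had none.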
